A study of Mus musculus with 19 samples.

Results

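Marker genes of Kupffer cells, the resident macrophages of the liver, and of other leukocytes were followed in mouse liver through lactation and after weaning. The set held 42 genes, chosen by symbol as known markers, of 51826 gene entries measured. It comprised 13 Kupffer cell and macrophage genes, 8 monocyte and dendritic cell genes, 2 neutrophil genes, 7 T and NK cell genes, 6 B and plasma cell genes and 6 genes shared by several kinds of leukocyte. Livers came from 19 female Balb/c mice, all labelled as 12 weeks old. There were 7 nulliparous mice (NUL), 6 at lactation day 10 (LAC) and 6 at involution day 6 (ID6), the sixth day after weaning, and the labels name no genetic change and no treatment. The comparisons ask how livers of nursing and of recently weaned mothers differ from those of mice that have not bred. Its methods name 2 suppliers of Balb/c mice without saying which mouse came from which. Caudate lobes were frozen after cardiac puncture and washing of the removed liver, and perfusion was not described.

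Kupffer cells line the liver sinusoids, where they clear particles, bacteria and aged red blood cells from portal blood. They arise largely from embryonic precursors, renew themselves in the tissue, and can be replaced by blood monocytes when they are lost. Their identity genes include Clec4f, which is restricted to Kupffer cells in the mouse. Others are Cd5l, a secreted scavenger receptor protein, and the scavenger and phagocytic receptors Marco, Timd4 and Vsig4. The liver also holds T cells, NK cells, B cells, dendritic cells and neutrophils, and leukocytes in its vessels.

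Expression was measured by sequencing poly(A) RNA of whole liver and is given in TPM (transcripts per 1000000), a unit that corrects for gene length, so that levels of different genes may be compared. TPM sums to the same total in each mouse and keeps no depth, and no counting interval can be given. Stages were compared with limma-trend on log2(TPM + 1) over 16230 genes that averaged 0.1 TPM or more, and a gene passed at an adjusted p under 0.05. Of the 42 genes, 40 entered the test, and Xcr1 and Cd8a were below the limit. Those 40 genes were above 0 in every mouse. Adding 1 TPM before the log shrinks differences between values that are themselves around 1 TPM or less. Alb, the liver's main plasma protein gene, held 42481 to 66970 TPM in NUL mice, 81145 to 127179 TPM in LAC mice and 55316 to 82593 TPM in ID6 mice. The share of TPM in mitochondrially encoded genes was 11.7% to 14.6% in NUL, 10.2% to 14.6% in LAC and 7.98% to 11.3% in ID6 mice. Whether these shifts in composition bear on the leukocyte values was not tested beyond the other scalings given with the results.

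The mice carry animal numbers, as in NUL_1, and those numbered under 200 (3 NUL and 3 LAC mice) stood apart from those numbered 200 and above (4 NUL, 3 LAC and all 6 ID6 mice). Among NUL mice, 18 of the 40 tested leukocyte genes, 10 of the 13 Kupffer cell genes among them, were lower in all 3 lower-numbered mice than in all 4 others, against 22.5% of all genes tested, and 0 were higher, against 9.37%. Among LAC mice, 6 of 40 were lower, against 16.1% of all genes, and 1 was higher, against 13.2%. No batch is named in the labels or the methods. Counts restricted to the higher-numbered mice follow each comparison of the 40 tested genes, but not every list of other genes. For ID6 against lower-numbered mice the stage and the range of numbers cannot be told apart.

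In each of 5 of the 6 marker groups the summed level was lowest at the median in LAC mice and highest in ID6 mice. The summed TPM of the 13 Kupffer cell genes was 303 to 562 in NUL mice (median 474), 205 to 388 in LAC mice (median 300) and 629 to 835 in ID6 mice (median 735). All 6 ID6 mice lay above all NUL and LAC mice, while NUL and LAC mice overlapped. For the 7 T and NK cell genes the sums were 2.32 to 7.07, 0.97 to 3.12 and 5.58 to 9.18 TPM in the same order. Lyz2 alone gave most of the monocyte and dendritic cell sum (a mean of 83.2 of 87.3 TPM in NUL mice), and Kupffer cells express it too. The 6 B and plasma cell genes were the exception, with a median of 33.6 TPM in NUL, 45.6 TPM in LAC and 61.6 TPM in ID6 mice. In bulk tissue, fewer cells of a type and less RNA per cell cannot be told apart.

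**Figure D1:**
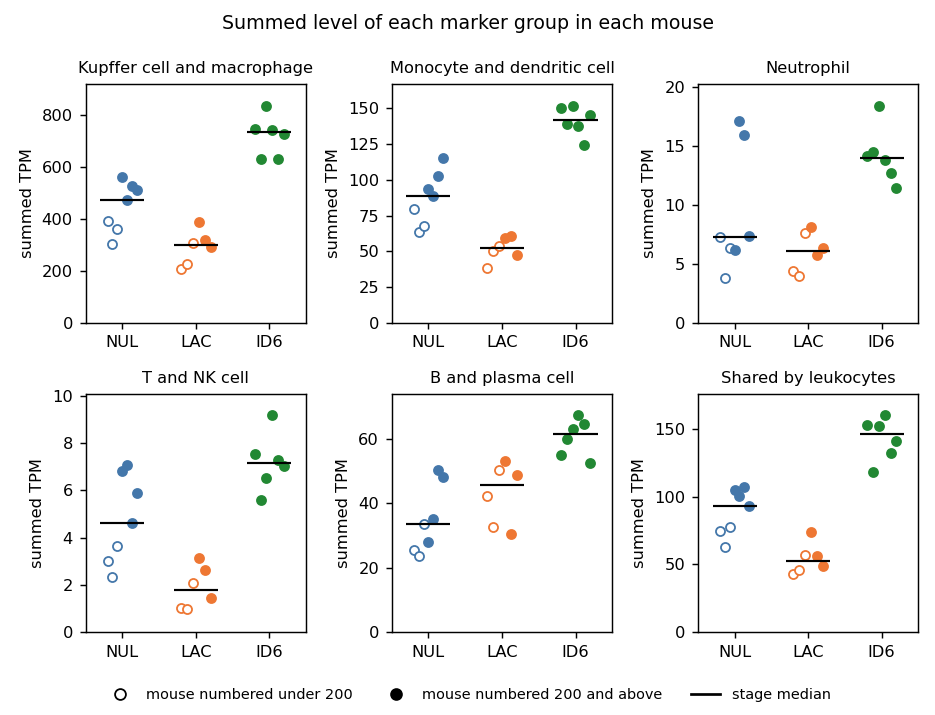
Summed TPM (y axis, linear from 0) of the genes of each marker group in each of the 19 mice, by stage (x axis). Each point is 1 mouse, open for animal numbers under 200 and filled for 200 and above, and the line is the stage median. For the Kupffer cell group the 6 ID6 mice sit between 629 and 835, above every NUL and LAC mouse, whereas for the B and plasma cell group the LAC median is above the NUL median.

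Which leukocyte genes differed during lactation was asked by comparing LAC with NUL mice. Of the 40 genes tested, 21 fell and 0 rose at lactation day 10, where 6.49% of all 16230 genes fell and 2.72% rose. With median-ratio scaling, which sets the typical gene equal between mice, 19 fell and 1 (Ighm) rose, where 4.53% of all genes fell and 4.58% rose. The 21 were 11 Kupffer cell genes, 2 of the monocyte and dendritic cell group (Lyz2 and Ccl2), 2 T and NK cell genes, 2 B cell genes and 4 shared genes. The median log2 difference over the 40 was -0.45, against -0.032 over all genes. With no filter on low values, so that all 42 genes were tested, 16 fell (3.26% of all genes did) and the median was -0.42. None of the 40 also had a log2 difference of at least 1, the study's added threshold, which 0.746% of all genes met. For 4 of the 40 every LAC mouse was below every NUL mouse (Vsig4, Lyz2, Ccl2 and Cd79b), and 2.29% of all genes showed that. Among mice numbered 200 and above 21 fell (4.47% of all genes fell), of which 19 were among the 21 that fell over all mice. Among the 3 NUL and 3 LAC mice numbered under 200 only Ctss and Tyrobp fell while Ighm rose (3.28% of all genes passed in either direction). The difference between these ranges, tested as an interaction, passed for 0 of 40 in limma-trend, with 2 at an unadjusted p under 0.05 (Laptm5 and Nkg7, named after their values were seen), and for 0.111% of all genes. Leaving out 1 mouse at a time gave 14 to 26 passing genes.

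After weaning, the same genes were compared between ID6 and LAC mice. Here 37 of 40 rose and 0 fell, where 18.1% of all genes rose and 4.73% fell. Every tested gene of the Kupffer cell, neutrophil, T and NK cell and shared groups rose, as did 6 of 7 monocyte and dendritic cell genes and 4 of 6 B and plasma cell genes. The exceptions were Cx3cr1, Ighm and Jchain. The median log2 difference was 0.97, against 0.099 over all genes, and over all 42 genes with no filter 36 rose, as 10% of all genes did, and the median was 0.93. A log2 difference of at least 1 was added for 19 of the 40, and for 1.03% of all genes in that direction. In 32 of the 40 every ID6 mouse exceeded every LAC mouse, which held for 9.3% of all genes. Among mice numbered 200 and above 30 rose, against 10.6% of all genes. Median-ratio scaling lowered the median of all genes by 0.104 on the log2 scale, and 35 of 40 rose relative to it, where 8.03% of all genes rose and 8.33% fell.

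Involution was also set against the nulliparous state. In ID6 mice 25 of 40 genes were higher than in NUL mice and 0 were lower, with 3.44% of all genes higher and 0.912% lower. The 25 included 12 of 13 Kupffer cell genes and 5 of 6 shared genes. The median log2 difference was 0.56, against 0.065 over all genes. With no filter on low values 16 of 42 rose, as 1.14% of all genes did. Only Cd5l and Ighm also differed by at least 1, as 0.0801% of all genes did. Every ID6 mouse exceeded every NUL mouse for 16 of the 40, against 1.84% of all genes. Among mice numbered 200 and above only C1qa, Cd5l, Lyz2 and Vsig4 passed, where 0.511% of all genes rose, and the median over the 40 was 0.37. With the range of animal numbers as a covariate 11 rose (1.07% of all genes), and with median-ratio scaling 12 rose (1.02% of all genes rose and 1.32% fell). Without NUL_1, NUL_4 or NUL_13 the count was 13 in each case, and without ID6_201, ID6_216, ID6_218 or ID6_232 it was 14 to 16. The 3 comparisons share mice, so a gene low in LAC mice enters the first and the second with opposite signs.

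**Figure D2:**
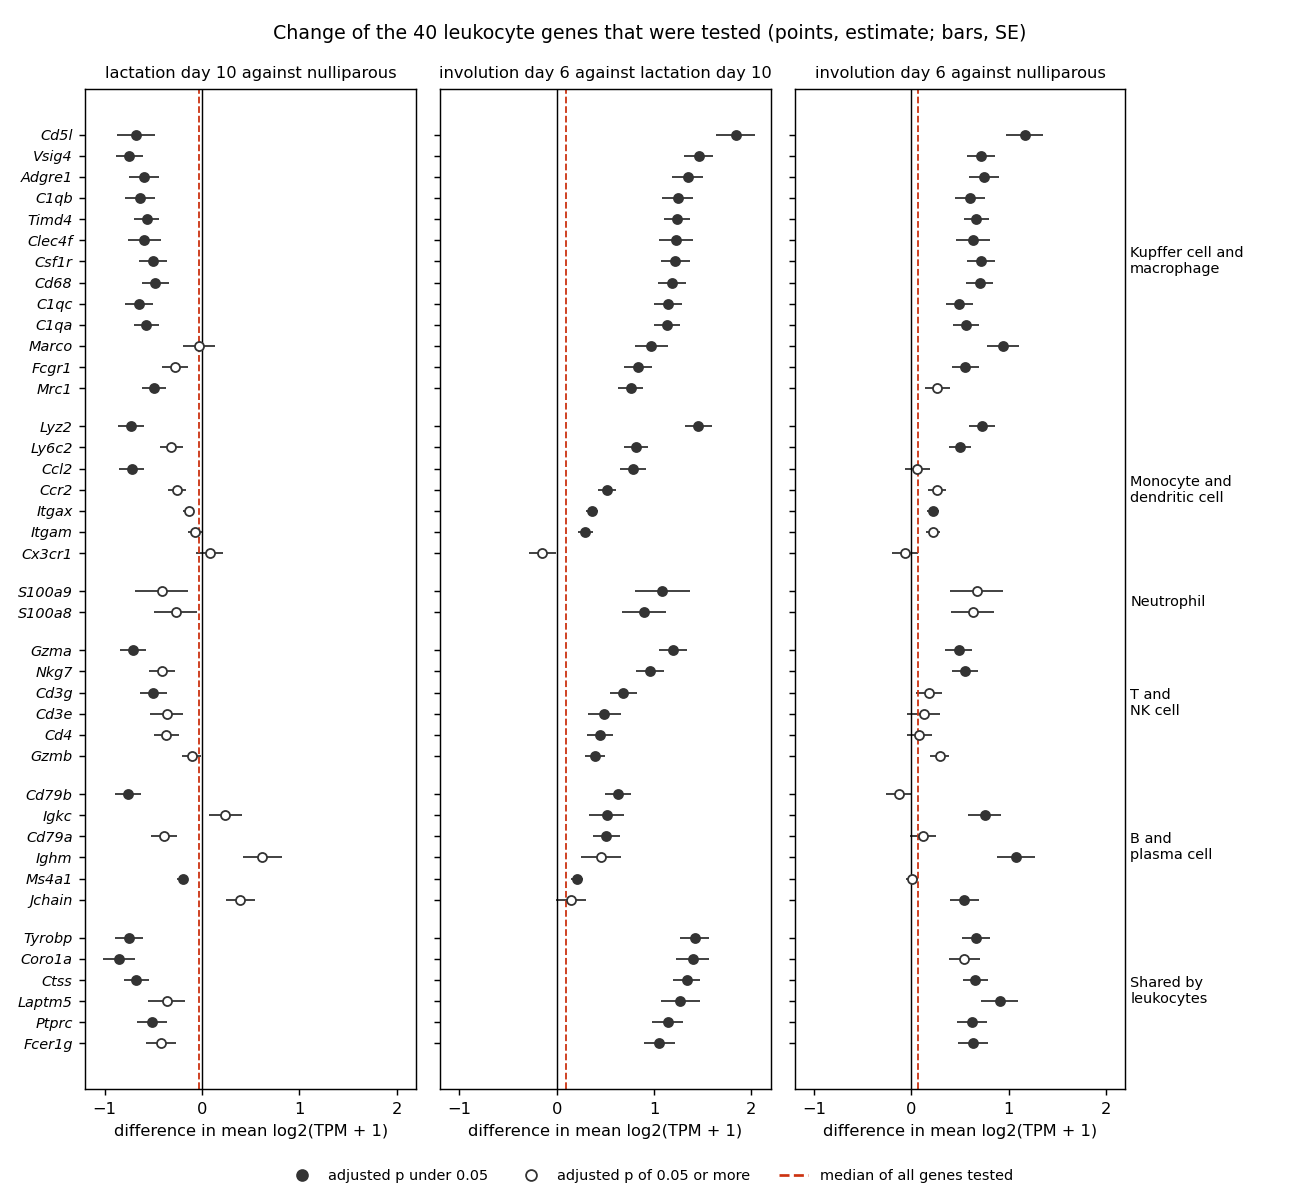
Difference in mean log2(TPM + 1) (x axis) of each of the 40 tested genes (rows, by marker group) in the 3 comparisons, with SE bars. Filled points passed at an adjusted p under 0.05 and the dashed line is the median of all genes tested. In the middle panel 37 of 40 points are filled and lie to the right of 0, and in the left panel the points of Igkc, Ighm and Jchain are right of 0 and open.

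Clec4f encodes a C-type lectin receptor of Kupffer cells and was the most abundant of their 13 genes. It is on chromosome 6 (GRCm38, chr6:83644542-83656187, minus strand). Its level was 79.5 to 158 TPM in NUL (median 130.3), 56.0 to 116 in LAC (median 77.5) and 159 to 220.35 in ID6 mice (median 185). All ID6 mice were above all others, if narrowly above the highest NUL mouse, and NUL and LAC mice overlapped. The log2 difference was -0.59 ± 0.17 (SE) in LAC against NUL mice (adjusted p = 0.0352), 1.23 ± 0.18 in ID6 against LAC mice (adjusted p = 8.12e-05) and 0.63 ± 0.17 in ID6 against NUL mice (adjusted p = 0.0438). Among mice numbered 200 and above the last of these was 0.38 and did not pass (adjusted p = 0.136).

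Cd5l, a secreted scavenger receptor protein of tissue macrophages that binds lipids and bacterial products, had the largest log2 difference of the 40 tested genes after weaning. It stood at 39.3 to 77.1 TPM in NUL (median 62.2), 24.5 to 55.1 in LAC (median 37.0) and 104 to 172 in ID6 mice (median 130.4). ID6 mice lay clear of both other stages, which overlapped each other. The rise from LAC to ID6 was 1.84 ± 0.20 on the log2 scale (adjusted p = 6.49e-06), or 3.54 times in mean TPM, and from NUL to ID6 it was 1.16 ± 0.19 (adjusted p = 0.00408). The latter was 0.88 and passed among mice numbered 200 and above. In LAC against NUL mice it fell by 0.68 on the log2 scale (SE 0.19, adjusted p = 0.0333).

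Vsig4, the complement receptor by which Kupffer cells take up opsonized particles, separated the 3 stages without overlap. Its level was 21.6 to 34.8 TPM in NUL (median 30.5), 10.9 to 21.1 in LAC (median 16.9) and 39.5 to 54.7 in ID6 mice (median 49.9). Log2 differences were -0.75 ± 0.14 (LAC against NUL, adjusted p = 0.00267), 1.46 ± 0.15 (ID6 against LAC, adjusted p = 3.12e-06) and 0.72 ± 0.14 (ID6 against NUL, adjusted p = 0.0109). It passed in all 3 comparisons also among mice numbered 200 and above.

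Timd4 binds phosphatidylserine on dying cells and marks long-resident Kupffer cells. Levels of 3.13 to 5.74 TPM in NUL (median 4.38), 1.79 to 3.47 in LAC (median 2.67) and 6.1 to 8.49 in ID6 mice (median 7.62) were measured. The ID6 mice did not overlap the others. Adgre1, which encodes the macrophage surface antigen F4/80, was at 3.9 to 8.09, 2.14 to 4.86 and 8.84 to 11.7 TPM with medians of 6.09, 3.59 and 10.9, again with ID6 mice apart. From LAC to ID6, Timd4 rose by 1.24 ± 0.14 (adjusted p = 6.49e-06) and Adgre1 by 1.35 ± 0.16 (adjusted p = 1.21e-05).

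C1qa, C1qb and C1qc encode the 3 chains of complement C1q and lie beside each other on chromosome 4 (GRCm38, minus strand). C1qa was at 44.2 to 81.9 TPM in NUL (median 72.7), 32.7 to 52.7 in LAC (median 44.8) and 87.1 to 103 in ID6 mice (median 96.4). Each ID6 mouse exceeded each NUL and LAC mouse for C1qa. It fell in LAC against NUL mice (log2 -0.57 ± 0.13, adjusted p = 0.00871) and rose in ID6 against LAC mice (1.13 ± 0.13, adjusted p = 1.35e-05). The 3 genes had similar folds after weaning, with mean TPM of ID6 mice 2.2, 2.38 and 2.21 times that of LAC mice. Their stage medians were 63.4, 39.2 and 93.4 TPM for C1qb and 58.9, 33.9 and 80.5 TPM for C1qc in NUL, LAC and ID6 mice.

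Of the other Kupffer cell genes, Csf1r, the receptor for the growth factor that maintains macrophages, and Cd68, a lysosomal protein, fell in LAC mice (log2 -0.50 and -0.48) and rose in ID6 mice (1.22 and 1.18 against LAC). Their stage medians in NUL, LAC and ID6 mice were 16.4, 12.8 and 30.8 TPM for Csf1r and 8.68, 5.75 and 15.1 TPM for Cd68. Mrc1, the mannose receptor, which sinusoidal endothelial cells also express, fell in LAC mice (log2 -0.49) and rose in ID6 against LAC mice by 0.76, the smallest rise of the 13. It did not pass in ID6 against NUL mice (0.27, adjusted p = 0.189). Marco, a scavenger receptor, and Fcgr1, the high-affinity IgG receptor, did not pass during lactation, with log2 differences of -0.03 and -0.28. Marco had stage medians of 1.55, 1.52 and 4.21 TPM and Fcgr1 of 1.44, 1.15 and 2.61 TPM. Marco then rose by 0.97 after weaning and, at 0.94 above NUL mice, had the second largest log2 difference of the 13 in that comparison. In mean TPM its ratio of ID6 to NUL mice, 2.48, was the largest of the 13. Exons of Csf1r overlap those of Hmgxb3 on the other strand. The methods do not state whether the libraries kept strand, so it is not known whether reads of overlapping genes were separated by strand. Cx3cr1, Itgam, Cd3e and Coro1a also overlap exons of another annotated gene, and their values carry the same uncertainty.

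The calls during lactation were close to the threshold for some of these genes. Leaving out 1 mouse of 19 at a time, the fall of Clec4f did not pass without NUL_220, NUL_221, NUL_226, NUL_227, LAC_102, LAC_133 or LAC_36 (log2 -0.71 to -0.50 over all 19, highest adjusted p 0.0919), and that of Cd5l without NUL_220, NUL_221, NUL_226, NUL_227, LAC_102, LAC_240 or LAC_36 (-0.80 to -0.57, highest adjusted p 0.0884). Against NUL mice, the rise of Clec4f in ID6 mice was lost in 12 of these 19 fits, without any of the 6 ID6 mice, NUL_1, NUL_4, NUL_13, NUL_221, LAC_133 or LAC_240 (highest adjusted p 0.102). That of C1qa was lost without NUL_1, NUL_13, ID6_216 or ID6_232 (highest adjusted p 0.0576).

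**Figure D3:**
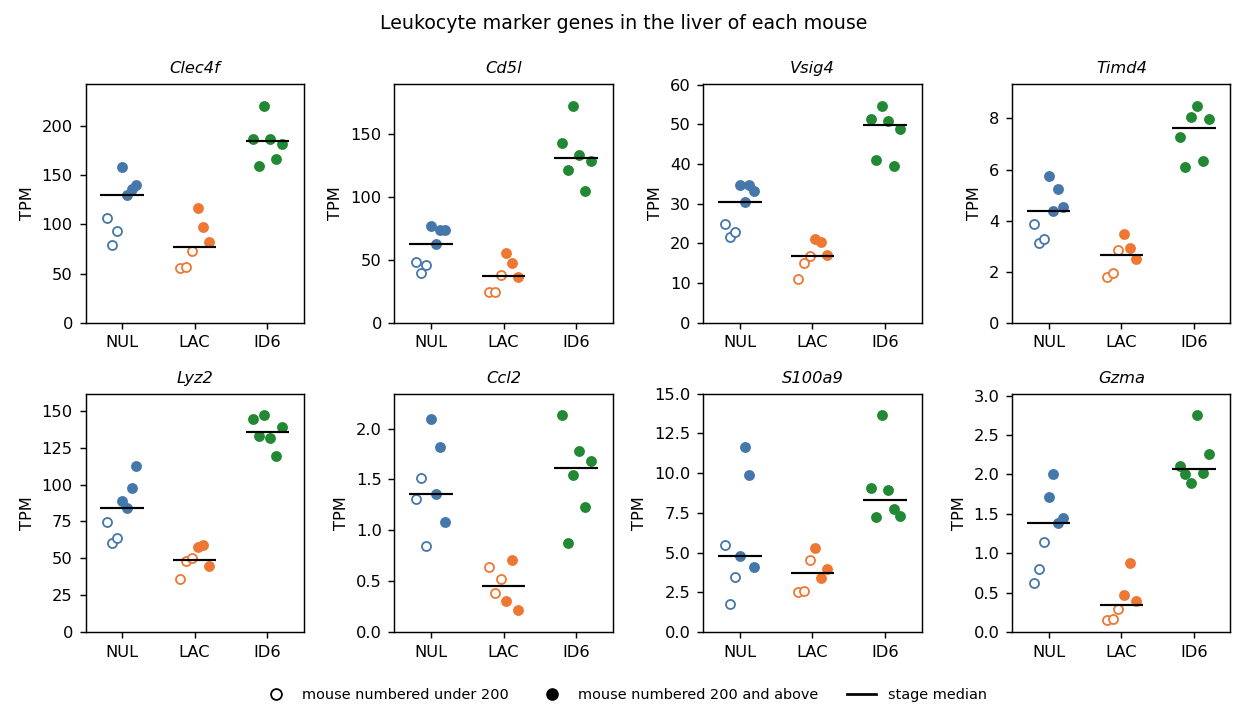
TPM (y axes, linear from 0) of 8 marker genes in each mouse by stage, with open points for animal numbers under 200, filled points for 200 and above and a line at the stage median. Clec4f, Cd5l, Vsig4 and Timd4 mark Kupffer cells, Lyz2 and Ccl2 are in the monocyte and dendritic cell group, S100a9 marks neutrophils and Gzma NK and T cells. Cd5l runs from 24.5 to 55.1 in LAC and from 104 to 172 in ID6 mice, and for Ccl2 the ID6 mice overlap the NUL mice.

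Many macrophage genes share purine-rich sites for PU.1, the transcription factor encoded by Spi1. The 250 bases before the start of each gene were read from RefSeq promoter windows (GRCm38.p6), which matched 32 of the 42 genes, and searched on both strands for GAGGAA, a core of such sites. The letters occurred before 17 of the 32 genes and 8 of 10 Kupffer cell genes, and before 25.85% of all 27025 gene symbols in the table. A match is a description of the letters only. The windows of Cd5l, with the largest log2 difference after weaning, of the neighbours C1qb and C1qc, with similar folds, and of Clec4f, the most abundant Kupffer cell gene, are shown. They run 5′ to 3′ on the strand of the gene, ending just before the start that RefSeq gives. For Clec4f and C1qc that start lies inside the span of the gene in the other annotation used here. Capitals mark GAGGAA or its reverse complement TTCCTC.
Cd5l (chr3:87357631-87357880, plus strand): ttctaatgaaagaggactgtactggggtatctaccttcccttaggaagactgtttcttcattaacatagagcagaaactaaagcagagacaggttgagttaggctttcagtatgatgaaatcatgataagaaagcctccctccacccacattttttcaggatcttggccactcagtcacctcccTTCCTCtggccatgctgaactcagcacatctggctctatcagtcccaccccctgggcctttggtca
C1qb (chr4:136886201-136886450, minus strand): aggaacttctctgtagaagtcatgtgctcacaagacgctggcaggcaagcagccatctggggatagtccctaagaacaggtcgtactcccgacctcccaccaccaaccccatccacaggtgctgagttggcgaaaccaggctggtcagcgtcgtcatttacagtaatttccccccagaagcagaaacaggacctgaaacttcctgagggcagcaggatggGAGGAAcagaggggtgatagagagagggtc
C1qc (chr4:136892915-136893164, minus strand): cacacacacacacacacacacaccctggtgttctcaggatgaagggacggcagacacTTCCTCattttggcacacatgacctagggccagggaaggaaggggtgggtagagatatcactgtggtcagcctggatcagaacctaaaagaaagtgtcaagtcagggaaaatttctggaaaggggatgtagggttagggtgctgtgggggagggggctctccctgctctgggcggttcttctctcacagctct
Clec4f (chr6:83656117-83656366, minus strand): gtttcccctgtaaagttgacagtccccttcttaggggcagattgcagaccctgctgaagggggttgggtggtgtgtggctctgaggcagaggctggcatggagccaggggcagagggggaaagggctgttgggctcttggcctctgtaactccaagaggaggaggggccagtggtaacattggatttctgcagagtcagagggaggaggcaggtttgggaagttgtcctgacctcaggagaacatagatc
The window of Cd5l holds the letters once, 66 bases before the start on the reverse strand, that of C1qb once at 30 bases, that of C1qc once at 193 bases on the reverse strand, and that of Clec4f not at all. Spi1 itself was at 2.56 to 6.28 TPM in NUL (median 4.47), 1.71 to 4.16 in LAC (median 2.65) and 5.6 to 7.86 in ID6 mice (median 6.58), and rose by 1.06 ± 0.18 in ID6 against LAC mice (adjusted p = 0.000274).

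Among monocyte and dendritic cell genes, Lyz2, the lysozyme of macrophages, monocytes and neutrophils, was by far the most abundant. It measured 60.1 to 112 TPM in NUL (median 84.2), 36.2 to 59 in LAC (median 49.2) and 119 to 147 in ID6 mice (median 136). The stages did not overlap. Differences were -0.73 ± 0.13 in LAC against NUL mice (adjusted p = 0.00166), 1.46 ± 0.14 in ID6 against LAC mice (adjusted p = 1.35e-06) and 0.73 ± 0.13 in ID6 against NUL mice (adjusted p = 0.00631), and all 3 passed among mice numbered 200 and above. Since tissue macrophages express Lyz2 as well, it does not separate monocytes from Kupffer cells.

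Genes closer to recruited monocytes were low. Ly6c2, a surface antigen of inflammatory monocytes, was at 0.42 to 1.24 TPM in NUL, 0.3 to 0.88 in LAC and 1.16 to 1.98 in ID6 mice, with medians of 0.83, 0.41 and 1.61. Ccr2, the receptor that brings monocytes out of the bone marrow, ran from 0.26 to 0.76 TPM, from 0.21 to 0.58 and from 0.67 to 1.27, with medians of 0.65, 0.32 and 0.89. For both genes ID6 mice lay above all LAC mice and overlapped NUL mice. Both rose from LAC to ID6 (Ly6c2 0.82 ± 0.12, adjusted p = 9.73e-05, and Ccr2 0.52 ± 0.09, adjusted p = 0.000657) without passing in LAC against NUL mice (adjusted p = 0.1 and 0.0877). Ccr2 passed there without NUL_4 (adjusted p = 0.0213), and Ly6c2 without NUL_227 or LAC_133 (lowest adjusted p 0.0440). Ly6c2 has a close paralog, and the division of reads between them is uncertain.

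Ccl2, the chemokine ligand of Ccr2, followed another course. Its level was 0.85 to 2.09 TPM in NUL (median 1.36), 0.22 to 0.71 in LAC (median 0.45) and 0.88 to 2.13 in ID6 mice (median 1.61). LAC mice lay below all others, and NUL and ID6 mice overlapped almost fully. The fall in LAC mice was 0.72 on the log2 scale (SE 0.13, adjusted p = 0.0014, a mean TPM of 0.324 times that of NUL mice), and the ID6 level differed from NUL mice by 0.06 ± 0.13 (95% interval -0.20 to 0.33). Itgax and Itgam, integrins of dendritic and myeloid cells, rose from LAC to ID6 by 0.36 and 0.30 at levels under 1 TPM in every mouse. Cx3cr1, the fractalkine receptor of patrolling monocytes, did not pass in any comparison, with log2 differences between -0.15 and 0.08. Xcr1, a receptor of cross-presenting dendritic cells, was at most 0.18 TPM and was not tested.

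S100a8 and S100a9 encode the subunits of calprotectin, an abundant protein of neutrophils that monocytes also make. S100a9 was at 1.75 to 11.7 TPM in NUL (median 4.79), 2.5 to 5.27 in LAC (median 3.71) and 7.26 to 13.6 in ID6 mice (median 8.33). S100a8 ran from 1.4 to 6.04, from 1.39 to 3.11 and from 4.13 to 7.26 TPM, with medians of 2.81, 2.36 and 4.92. ID6 mice exceeded all LAC mice for both genes, and the wide spread of NUL mice overlapped both other stages. The rises from LAC to ID6 were 1.09 ± 0.28 (adjusted p = 0.00966) and 0.90 ± 0.23 (adjusted p = 0.00777). Neither gene passed in the other comparisons, where the SE was 0.22 to 0.27, except that S100a8 passed in ID6 against NUL mice without NUL_226 (adjusted p = 0.0353). Among mice numbered 200 and above S100a8 did not pass in ID6 against LAC mice (0.79, adjusted p = 0.0714), and with the range of animal numbers as a covariate S100a9 did not (0.77, adjusted p = 0.0595). Of 9 other neutrophil and bone marrow genes, 6 were tested and 1 rose in ID6 against LAC mice, a share near the 18.1% of all genes. This was Retnlg, from a median of 0.175 to 1.85 TPM (1.2 ± 0.16, adjusted p = 3.28e-05). The neutrophil surface antigen gene Ly6g was at 0.25 TPM or less in every mouse, with a median of 0 in NUL and LAC mice.

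T and NK cell genes were present at a few TPM or less. Gzma, a granule protease of NK cells and cytotoxic T cells, was at 0.62 to 2 TPM in NUL (median 1.38), 0.16 to 0.88 in LAC (median 0.35) and 1.89 to 2.75 in ID6 mice (median 2.06). Nkg7, a granule membrane protein of the same cells, was at 0.38 to 1.36, 0.1 to 0.56 and 1.02 to 2.55 TPM, with medians of 0.76, 0.34 and 1.58. For both genes all ID6 mice exceeded all LAC mice, and each other pair of stages overlapped. Mean TPM was 5.47 times higher in ID6 than in LAC mice for Gzma (log2 1.2 ± 0.14, adjusted p = 1.27e-05) and 4.74 times for Nkg7 (0.96 ± 0.14, adjusted p = 8.8e-05). Gzma also fell during lactation (-0.71 ± 0.14, adjusted p = 0.00268), and Nkg7 did not pass (-0.41 ± 0.14, adjusted p = 0.0645). Nkg7 did pass when NUL_4 or ID6_218 was left out (lowest adjusted p 0.0335) and in 2 of the other alternative settings.

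The T cell receptor chain gene Cd3g was at 0.61 to 1.96 TPM in NUL (median 0.87), 0.17 to 1 in LAC (median 0.41) and 1.02 to 1.67 in ID6 mice (median 1.23). ID6 mice were above all LAC mice and overlapped NUL mice. It fell in LAC against NUL mice (-0.50 ± 0.13, adjusted p = 0.0246), a call lost without LAC_102 or LAC_36 (highest adjusted p 0.0658), and rose in ID6 against LAC mice (0.68 ± 0.14, adjusted p = 0.00164). The fall of Cd3g did not pass among mice numbered 200 and above (-0.47, adjusted p = 0.136) or under 200 (-0.48, adjusted p = 0.0857). Cd4, the coreceptor of helper T cells, and Cd3e, another chain of the receptor, had LAC medians of 0.20 and 0.24 TPM against 0.57 and 0.43 in NUL and 0.69 and 0.81 in ID6 mice. Both rose from LAC to ID6 (0.45 ± 0.13, adjusted p = 0.0208, and 0.49 ± 0.17, adjusted p = 0.0478). The Cd3e call was lost in 12 of the 19 fits that left out a mouse, among them those without any ID6 mouse but ID6_209 and any LAC mouse but LAC_213 (also NUL_13 and NUL_221), with adjusted p up to 0.103. Neither passed among mice numbered 200 and above (0.32 and 0.46). Against NUL mice the ID6 levels of Cd3g, Cd4 and Cd3e did not pass. Gzmb rose from LAC to ID6 by 0.40, and Cd8a, at most 0.19 TPM, was not tested. Of 13 other T and NK cell genes, 11 were tested and all 11 rose in ID6 against LAC mice, where 18.1% of all genes rose. All 11 also rose among mice numbered 200 and above, where 10.6% of all genes did. They were led by Ccl5 (1.38 ± 0.28) and the receptor constant genes Trbc2 (1.25 ± 0.17) and Trbc1 (1.0 ± 0.14). The near-identical sequences of Trbc1 and Trbc2 make their separate values uncertain. Of the 11, 3 fell in LAC against NUL mice and 3 rose in ID6 against NUL mice (6.49% and 3.44% of all genes). Among mice numbered 200 and above these counts were 1 and 0, against 4.47% and 0.511% of all genes.

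The B and plasma cell genes had differences of both signs during lactation. Cd79b, a signalling chain of the B cell receptor, was at 0.84 to 2.43 TPM in NUL (median 1.51), 0.34 to 0.59 in LAC (median 0.42) and 0.85 to 1.87 in ID6 mice (median 1.1). LAC mice lay below all others, and NUL and ID6 mice overlapped. It fell by 0.76 on the log2 scale in LAC mice (SE 0.13, adjusted p = 0.0014, a mean of 0.303 times that of NUL mice) and rose by 0.63 ± 0.14 in ID6 mice (adjusted p = 0.00291), to a level that differed from NUL mice by -0.13 (95% interval -0.41 to 0.15). Its partner chain gene Cd79a had medians of 0.9, 0.48 and 1.09 TPM, with log2 differences of -0.39 ± 0.13 (adjusted p = 0.0668, or 0.0225 without NUL_4) and 0.51 ± 0.14 (adjusted p = 0.0105). Ms4a1, which encodes CD20, fell by 0.20 on the log2 scale and rose by 0.21, at levels under 0.5 TPM.

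The 3 immunoglobulin genes had higher medians in LAC than in NUL mice. Ighm, the heavy chain constant gene of IgM, was at 5.24 to 14.6 TPM in NUL (median 7.45), 9.92 to 18.3 in LAC (median 13.9) and 16.8 to 21.6 in ID6 mice (median 19.1). LAC mice overlapped both other stages, and all ID6 mice were above all NUL mice. Ighm was 0.62 ± 0.20 higher in LAC than in NUL mice without passing (adjusted p = 0.0572), and passed among mice numbered under 200 (0.98, adjusted p = 0.0404) but not among those numbered 200 and above (0.37, adjusted p = 0.384). Leaving out NUL_226, NUL_227 or LAC_213 also brought it past the threshold, with log2 differences over the 19 fits of 0.52 to 0.74. In ID6 against NUL mice it rose by 1.08 ± 0.20 (adjusted p = 0.00723), and among mice numbered 200 and above the difference was 0.74 and did not pass (adjusted p = 0.102). Ighm did not pass in ID6 against LAC mice (0.46 ± 0.21, adjusted p = 0.118).

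Igkc, the kappa light chain constant gene and the most abundant of the 6, measured 14.8 to 28.9 TPM in NUL (median 20.6), 16.6 to 30.3 in LAC (median 28.4) and 29.4 to 39.2 in ID6 mice (median 36.7). Jchain, which joins the subunits of polymeric IgM and IgA, was at 1.02 to 3.46, 2.45 to 3.67 and 2.92 to 3.74 TPM, with medians of 1.87, 2.79 and 3.31. All ID6 mice exceeded all NUL mice for Igkc, and otherwise the stages overlapped for both genes. Log2 differences in LAC against NUL mice were 0.24 ± 0.17 (adjusted p = 0.442) and 0.39 ± 0.15 (adjusted p = 0.106). Jchain passed there without NUL_226 or NUL_227 (lowest adjusted p 0.0266). In ID6 against NUL mice Igkc rose by 0.75 ± 0.17 (adjusted p = 0.0229) and Jchain by 0.54 ± 0.15 (adjusted p = 0.0451). The Igkc call against NUL mice was lost in 3 of the 19 fits that left out a mouse (those without NUL_1, NUL_4 or ID6_209). The Jchain call was kept only without NUL_226, NUL_227 or LAC_200, and neither passed among mice numbered 200 and above (0.58 and 0.34). Igkc also rose in ID6 against LAC mice (0.51 ± 0.18, adjusted p = 0.0457), a call lost in 10 of the 19 fits, those without NUL_13, NUL_221, LAC_36, LAC_102, LAC_213 or any ID6 mouse but ID6_232 (highest adjusted p 0.116). Among 10 other B and plasma cell genes, 9 were tested and only Cd74, the invariant chain of MHC class II that macrophages and dendritic cells also express, passed. Thus 1 of the 9 rose in ID6 against LAC mice, a share not above the 18.1% of all genes. Restricted to mice numbered 200 and above, 2 of the 9 fell in LAC against NUL mice, where 4.47% of all genes fell. In that restriction 3 rose in ID6 against LAC mice, where 10.6% of all genes rose. Cd74 fell by 1.1 on the log2 scale in LAC mice and rose by 1.95 in ID6 mice.

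**Figure D4:**
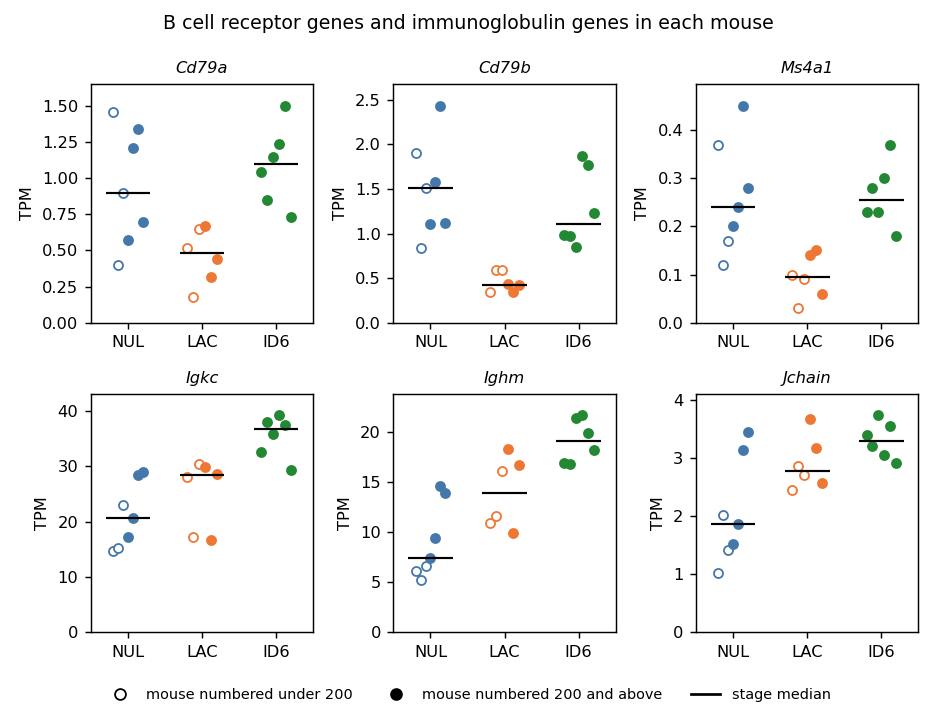
TPM (y axes, linear from 0) of 3 genes of the B cell receptor complex and B cell surface (top row) and 3 immunoglobulin genes (bottom row) in each mouse by stage. Open points are mice numbered under 200, filled points mice numbered 200 and above, and lines stage medians. The LAC mice sit below all NUL mice for Cd79b, at 0.34 to 0.59 TPM, and within or above the NUL range for Ighm, at 9.92 to 18.3 TPM.

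Of the 6 genes shared by several kinds of leukocyte, Ctss and Tyrobp, both highest in myeloid cells, gave most of the summed level (mean 32.5 and 32.4 of 88.7 TPM in NUL mice). Ctss, a lysosomal protease of antigen-presenting cells, was at 26.4 to 39.2 TPM in NUL (median 30.8), 14.8 to 27.0 in LAC (median 19.1) and 43.8 to 59.0 in ID6 mice (median 50.7). Tyrobp, the adaptor DAP12 of activating myeloid and NK cell receptors, ran from 23.4 to 41.8, from 15.5 to 27.2 and from 40.3 to 57.9 TPM, with medians of 30.9, 17.7 and 53.2. ID6 mice stood above all LAC mice for both genes and above all NUL mice for Ctss. Both fell in LAC mice (log2 -0.68 ± 0.13, adjusted p = 0.00267, and -0.75 ± 0.14, adjusted p = 0.00273) and rose in ID6 against LAC mice (1.33 ± 0.13, adjusted p = 2.99e-06, and 1.42 ± 0.15, adjusted p = 5.23e-06). They were the only members that fell in both ranges of animal numbers taken separately.

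Ptprc, the leukocyte common antigen CD45, was at 1.59 to 4.38 TPM in NUL (median 2.45), 1.35 to 2.11 in LAC (median 1.63) and 3.77 to 6.6 in ID6 mice (median 4.85). Coro1a, an actin regulator of leukocytes, ran from 2.74 to 7.2, from 1.65 to 3.33 and from 6.19 to 9.32 TPM, with medians of 5.96, 2.42 and 8.2. For both genes ID6 mice were above all LAC mice, and NUL mice overlapped both other stages. On the log2(TPM + 1) scale Coro1a had the largest fall of the 40 genes in LAC mice (-0.85 ± 0.16, adjusted p = 0.00247) and rose by 1.40 ± 0.17 in ID6 mice. In mean TPM it fell to 0.462 times the NUL level, less far than Cd79b (0.303 times). Ptprc fell by 0.52 (SE 0.15, adjusted p = 0.0412), a call kept only without NUL_1, NUL_4, NUL_13, LAC_200 or 4 of the ID6 mice (adjusted p up to 0.0847 in the other 11 fits), and rose by 1.14 ± 0.16. Fcer1g, the signalling chain of Fc receptors, rose in ID6 against LAC mice (1.06 ± 0.16) and did not pass in LAC against NUL mice (-0.42 ± 0.16, adjusted p = 0.0991, or 0.0243 without NUL_4). That fall of Fcer1g passed among mice numbered 200 and above (-0.63, adjusted p = 0.0259) but not under 200 (-0.15, adjusted p = 0.765). Laptm5, a lysosomal membrane protein, had the largest difference of the 6 between ID6 and NUL mice (0.91 ± 0.19, adjusted p = 0.0172) but did not pass among mice numbered 200 and above. Stage medians were 9.46, 6.04 and 14.6 TPM for Fcer1g and 7.65, 4.13 and 11.5 TPM for Laptm5.

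Further genes of the same cells, from lists that were not part of the 42, were examined next. All 12 other Kupffer cell genes rose in ID6 against LAC mice, 7 fell in LAC against NUL mice and 8 rose in ID6 against NUL mice, where 18.1%, 6.49% and 3.44% of all genes did so. Restricted to mice numbered 200 and above, the counts were 11, 3 and 2, against 10.6%, 4.47% and 0.511% of all genes. Folr2, a folate receptor of resident macrophages, rose by 1.33 ± 0.17 after weaning, Il18bp, which neutralizes interleukin 18, by 1.42 ± 0.18 and Slc11a1, a phagosomal metal transporter, by 1.43 ± 0.19. Id3 (1.58 ± 0.40) and Nr1h3 (0.34 ± 0.08), transcription factor genes needed in Kupffer cells, are also expressed in other liver cells. Of 15 growth factors, receptors and regulators of leukocytes, 12 were tested, and 8 rose in ID6 against LAC mice while 0 fell, with 18.1% of all genes rising. Restricted to mice numbered 200 and above 5 of the 12 rose, against 10.6% of all genes. Besides Spi1 these included Irf8, a regulator of monocyte and dendritic cell development (0.68 ± 0.11), Flt3l, the dendritic cell growth factor (0.73 ± 0.15), and Csf1, the ligand of Csf1r (0.55 ± 0.18, adjusted p = 0.0302). Cebpb, at a mean above all others of that list, did not pass (-0.48 ± 0.20, adjusted p = 0.0857).

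Chemokine and adhesion genes were mixed. Of 16, 15 were tested, and 7 rose and 1 fell in ID6 against LAC mice, where 18.1% of all genes rose and 4.73% fell. Restricted to mice numbered 200 and above 9 rose and 0 fell, where 10.6% of all genes rose and 575 of 16230 fell. Vcam1, an adhesion molecule of endothelial cells and Kupffer cells, rose by 0.89 ± 0.13 and Ccl6, a chemokine of myeloid cells, by 0.95 ± 0.20. Ccl9 fell by 1.01 on the log2 scale (SE 0.36, adjusted p = 0.0478), a call lost in that restriction and with no filter on low values, and Cxcl12, the most abundant at a median of 181 TPM in NUL mice, did not pass (0.36, adjusted p = 0.0796). Of 8 Fc receptor, lectin and related myeloid receptor genes, 7 rose in ID6 against LAC mice, where 18.1% of all genes rose. Among mice numbered 200 and above 6 rose, against 10.6% of all genes. The 7 included Clec7a, the receptor for fungal glucans (1.29 ± 0.12), Clec12a (0.94 ± 0.08), Fcgr3 (1.24 ± 0.14) and Fcgr4 (1.0 ± 0.17). Fcgr2b, the inhibitory IgG receptor, which sinusoidal endothelium also expresses, fell by 0.63 in LAC mice (SE 0.10, adjusted p = 0.000707) and rose by 0.74 ± 0.11 in ID6 mice. Of 6 other dendritic cell genes 4 rose in ID6 against LAC mice (3 among mice numbered 200 and above), against 18.1% and 10.6% of all genes. Zbtb46, the most abundant of the 6, did not pass (0.13).

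Markers of other liver cells were examined in the same way. Of 6 sinusoidal endothelial genes, 3 rose in ID6 against LAC mice (Clec4g 0.84, Pecam1 0.59 and Kdr 0.51), as did 1 of 6 stellate cell and fibroblast genes (Dcn 0.50) and 1 of 5 cholangiocyte genes (Spp1 0.59). With 18.1% of all genes rising in that comparison, 1 gene of such a list is near the share of all genes. In LAC against NUL mice 1 endothelial, 2 stellate and 1 cholangiocyte gene fell, where 6.49% of all genes did, Dcn by 0.53 and Spp1 by 0.71 on the log2 scale. In ID6 against NUL mice 0 genes of these 3 lists passed. Relative to the NUL mean, the summed endothelial genes were at a median of 0.798 in LAC and 1.2 in ID6 mice, and the summed Kupffer cell genes at 0.670 and 1.64. The stellate cell and fibroblast sum was at 0.674 and 0.958, the cholangiocyte sum at 0.600 and 0.933. A sum of 5 hepatocyte genes, Alb among them, was at 1.57 and 1.08. Every LAC mouse was below every NUL mouse for the stellate and cholangiocyte sums, and above for the hepatocyte sum. For the endothelial sum every ID6 mouse exceeded every NUL mouse. Whether these cell types had a part in the leukocyte results was not tested.

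Red blood cell genes went the other way. Of 6 examined, 5 were tested, and all 5 fell in ID6 against LAC and against NUL mice, where 4.73% and 0.912% of all genes fell. The 4 hemoglobin genes summed to 1140 to 2400 TPM in NUL mice, 1325 to 3327 in LAC mice and 195 to 841 in ID6 mice. Among these 4, Hbb-bt differed most (-3.06 ± 0.35 in ID6 against LAC mice, adjusted p = 8.12e-06) and Hbb-bs least (-2.60 ± 0.32). The alpha and the beta genes are near-identical pairs, and the separate values within a pair are uncertain. Whether a change in retained blood had a part in the leukocyte values was not tested. Of 4 cell cycle genes 3 rose in LAC against NUL mice, where 2.72% of all genes rose, among them Cdk1 by 1.22 and Ccnb1 by 1.0. All 4 fell in ID6 against LAC mice, where 4.73% of all genes fell. Their summed TPM overlapped between NUL and LAC mice.

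**Figure D5:**
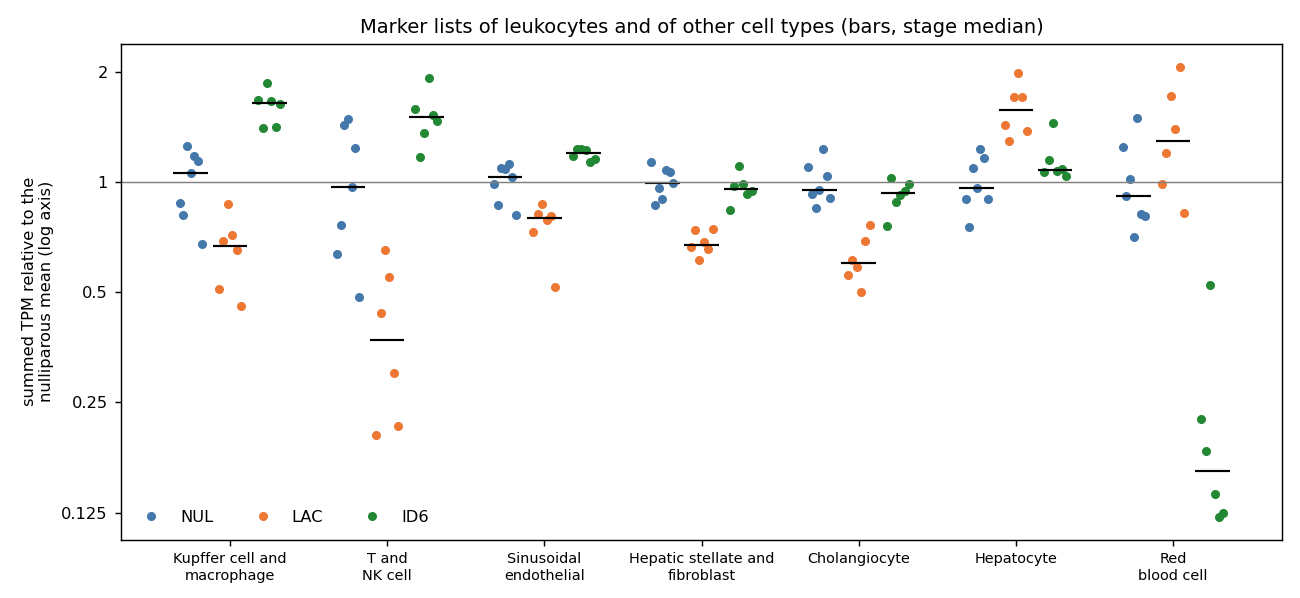
Summed TPM of marker lists relative to the mean of the NUL mice (y axis, log scale), with 1 point for each mouse and a bar at the stage median. In ID6 mice the Kupffer cell list has a median of 1.64 and the red blood cell list of 0.162, while the stellate cell and cholangiocyte lists are at 0.958 and 0.933.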

How the data were processed

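Poly(A) RNA of whole liver from 19 mice was sequenced with paired-end reads. Per the methods, the authors aligned reads to GRCm38 (the aligner is not given in the sources used here), quantified genes with RSEM 1.3.1 on Ensembl 89 and deposited TPM with 2 decimals for 51826 gene entries. Reads matching several genes are apportioned by RSEM, which leaves near-identical genes uncertain. The deposited TPM keep no depth, so precision is known only from the spread between mice. No 2 mice had identical columns (171 pairs compared). Read counts, on which the authors ran DESeq2, were not used here.

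Values were log2(TPM + 1). A limma-trend model (limma 3.58.1, R 4.3.3) with a mean for each stage was fitted to the 19 mice together, over genes averaging 0.1 TPM or more, and p-values were adjusted by Benjamini-Hochberg over all of them. The procedure was tested on simulated data. The marker genes and lists were chosen with earlier results of these data known. Members were named by the highest mean in each group and up to 5 with the lowest adjusted p and a mean of at least 0.5 TPM, other lists by their largest passing changes at 1 TPM or more and the most abundant gene, while the remaining members and Ly6g were described in brief. Alternatives were other pseudocounts (0.1 and 0.5), no filter or one at 1 TPM, fits of the 2 compared groups alone, 2 other scalings, robust moderation, the range of animal numbers as covariate or restriction, the study's fold threshold and each mouse left out. The analysis of mice numbered under 200 was added after the data were seen. Positions are from GENCODE M21 on GRCm38.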

Additional observations from a re-analysis of the deposited data

Results flagged for a closer look

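In 6 of 120 groups of mice, 1 mouse lay far from the others of its stage by Dixon's ratio of gap to range, a number near the 1 in 20 that chance gives. Tyrobp was at 27.19 TPM in LAC_200, with the next LAC mouse at 19.5 TPM. S100a9 reached 13.64 TPM in ID6_216 (next 9.07) and S100a8 7.26 TPM in ID6_209 (next 5.1). Cd3e was at 0.25 TPM in the same ID6_209, where the next mouse was at 0.71. Among NUL mice, Cd4 was at 1.5 TPM in NUL_227 (next 0.62) and Ccr2 at 0.26 TPM in NUL_4 (next 0.63).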

How the results depend on the processing

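The number of the 40 tested leukocyte genes that passed was within 1.5 times the reported number under most settings. In LAC against NUL mice (21 passing) it was 12 when only the 2 groups were fitted, 3 among mice numbered under 200 (added after the data were seen) and 0 with the fold threshold, and leaving out each mouse gave 14 to 26. In ID6 against LAC mice (37 passing) it was 19 with the fold threshold and otherwise 26 to 38, the 26 being of the 28 genes left by a filter at 1 TPM, with 35 to 37 when a mouse was left out. In ID6 against NUL mice (25 passing) it was 16 with no filter on low values, 15 with quantile normalization, 12 with median-ratio scaling, 11 with the range of animal numbers as covariate, 4 among mice numbered 200 and above and 2 with the fold threshold, and 13 to 27 when a mouse was left out. The interaction of lactation with the range of numbers had 0 genes under every setting run. Ighm passed as higher in LAC than in NUL mice with a filter at 1 TPM, with both other scalings and with the covariate, and Jchain with the covariate. Median-ratio scaling changed the calls over all genes in ID6 against LAC mice from 2936 higher and 767 lower to 1303 and 1352, and in LAC against NUL mice from 441 and 1053 to 743 and 735. Of 2355 recomputed values of named genes, 2104 kept direction and side of the threshold, 215 no longer passed, 29 newly passed and 7 changed sign. The sign changes were of genes that had not passed: Jchain in ID6 against LAC mice with the covariate (-0.015), and in ID6 against NUL mice Ccl2 at 200 and above (-0.029) and without ID6_201 (-0.0011, with 0.146 the highest value when a mouse was left out), Cd4 with the covariate (-0.072) and at 200 and above (-0.11), and Cd3e likewise (-0.017 and -0.12). The cause was not tested. The mice have individual numbers, and no paired analysis was possible because the groups share no replicate number. The depth of the libraries was not determined, and how many reads lie behind members under 1 TPM is not known.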
